A study of Mus musculus with 12 samples.

Results

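The neuronal nicotinic acetylcholine receptors were described through 8 of their subunit genes, Chrna3, Chrna4, Chrna5, Chrna6, Chrna7, Chrnb2, Chrnb3 and Chrnb4, out of the 17550 gene symbols measured. The genes were taken by symbol, from the probesets of the main type. The brains came from newborn female mice, 6 wildtype (KIS +/+) and 6 KIS-ko (KIS -/-), and each of 6 litters gave 1 brain of each genotype. The knockout was constitutive, on a C57BL6/N background, and the wildtype littermates shared that background and carried the gene on both chromosomes. Total RNA of each whole brain was hybridized to 1 Affymetrix mouse exon array, so that all brain regions are mixed in a value. The study asked how the loss of KIS, a protein kinase encoded by Uhmk1, changes gene expression in the neonate brain.

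Nicotinic receptors are cation channels made of 5 subunits and opened by acetylcholine. They are cys-loop receptors, named after a loop closed by a disulfide bond in the extracellular part of every subunit, as are the GABA-A and glycine receptors, which conduct chloride. Alpha4 and beta2 form the widespread high-affinity receptor of the brain and alpha7 forms a receptor from 1 kind of subunit. Alpha3 and beta4 are best known from autonomic ganglia and the medial habenula, and alpha5 and beta3 are accessory subunits that join receptors formed by others. Alpha6 is typical of dopamine neurons and of the visual system.

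On the exon array a probeset is a few short probes in 1 exon or part of it. Its value is the PLIER signal, an intensity on the linear scale. The 8 genes had 72 main probesets, from 7 in Chrna5 to 11 in Chrna7 and in Chrnb3. Probesets with a standard deviation above 0.4 of the mean in either genotype were rejected, which removed 1 probeset of Chrna6 and 1 of Chrnb3 and left 70. A gene value is the mean over the kept probesets of log2(signal + 16), and a difference is KIS-ko minus wildtype on that scale, which understates changes of dim genes. Genes were tested with limma over all 17279 genes kept, with a term for each litter and p-values adjusted by Benjamini-Hochberg. Precision is limited by the number of arrays.

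The targeted gene and the arrays as a whole were checked first. Uhmk1 had gene values from 10.89 to 11.07 in wildtype and from 8.62 to 8.98 in KIS-ko brains, a difference of -2.11, and was the 1 gene that limma called over all genes. The 11 pan-neuronal markers measured each had most of their probesets above the 95th percentile of the intron controls, against 0 of 7 sensory ganglion markers. The median signal of the KIS-ko array lay below that of its wildtype littermate in 5 of 6 litters, and the log2 differences of the medians in litters 1 to 6 were -0.071, -0.135, -0.023, 0.094, -0.035 and -0.164. Over all genes the median difference was -0.036 and 69.8% of all genes had a lower value without KIS. With each array centred on its own median these figures were 0.020 and 37.8%, so that the sign of a small difference rests on the scaling.

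The subunit genes fell into 3 ranges of signal in the newborn wildtype brain. Because probes differ in affinity, each gene was set against the 5222 intron control probesets of the arrays, whose median signal was 114 and whose 95th percentile was 713, and the genes were not ranked against each other. Chrna4 and Chrna3 were above the 95th percentile of the controls in every probeset, 9 of 9 and 8 of 8. Chrnb2 was above it in 6 of 8 and Chrna7 in 8 of 11. The remaining 4 genes had 0 probesets above it.

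The median probeset signal of Chrna4, over the means of the 6 wildtype brains, was 3024, with a range from 1434 to 5587. For Chrnb2, its usual partner, the median was 2348 (429 to 4056), and its dimmest probesets were the first and the last of the gene. The median was 1452 (1184 to 2612) for Chrna3 and 1004 (140 to 5514) for Chrna7. Within Chrna7 the signal was uneven, with 5514 ± 741 (SD, n = 6) in the probeset nearest the 5′ end, which has 2 probes, and 140 ± 43.1 (SD, n = 6) in the third probeset, also of 2 probes.

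Chrna5 and Chrnb4 lay between the median and the 95th percentile of the controls. Their median signals were 225 (145 to 696) and 290 (174 to 595), and all 7 and all 8 probesets were above the control median. Chrna6 and Chrnb3 were close to the controls. Chrna6 had a median of 146 (52.4 to 308) with 6 of 9 kept probesets above the control median, and Chrnb3 a median of 98.7 (57.3 to 177) with 3 of 10. At this signal over background, differences in Chrna6 and Chrnb3 could hardly be measured.

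**Figure D1:**
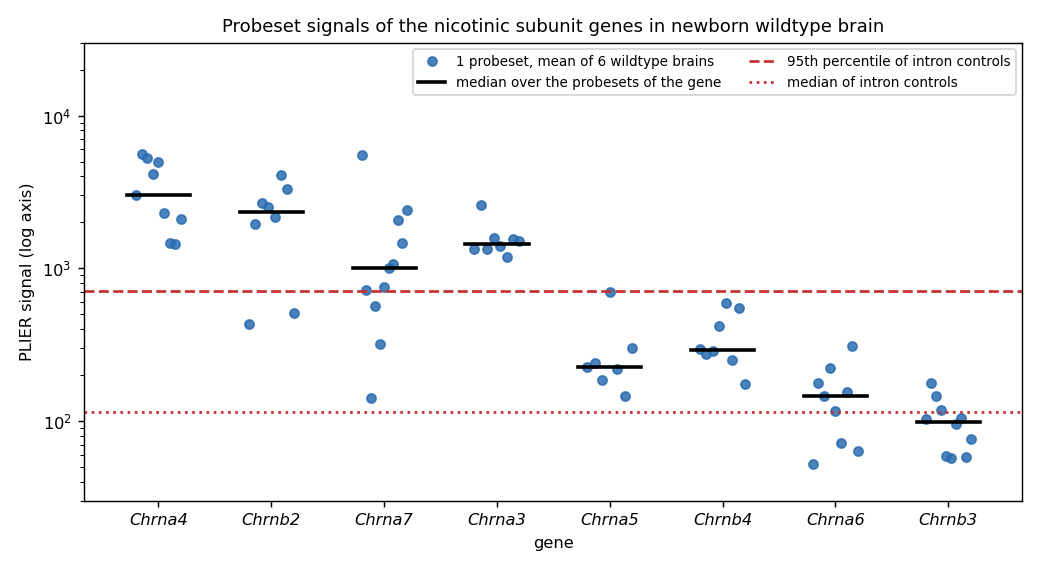
PLIER signal on a log axis for each kept probeset of the 8 genes, as the mean of the 6 wildtype brains (points), with the median over the gene's probesets (bar) and the median and 95th percentile of the intron controls (dotted and dashed lines). All probesets of Chrna4 and Chrna3 lie above the dashed line at 713, and those of Chrna5, Chrnb4, Chrna6 and Chrnb3 lie below it.

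None of the 8 genes was called between KIS-ko and wildtype brains at an adjusted p of 0.05, where limma called 0.00579% of all genes. Chrna5 alone had an unadjusted limma p under 0.05, which makes 1 of 8 genes where 6.16% of all genes were under that limit, 4.34% lower and 1.82% higher. Of the 8 genes, 5 had a lower and 3 a higher value in KIS-ko brains, and after centring on the array medians 2 were lower. The genotype groups overlapped in all 8 genes, and they did not overlap in 0.208% of all genes.

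Chrna5, the accessory subunit that changes the calcium permeability and desensitization of alpha4-beta2 and alpha3-beta4 receptors, had the largest difference of the 8 genes. Its gene value ran from 7.80 to 8.23 in the 6 wildtype brains with a median of 8.13, and from 7.74 to 8.04 with a median of 7.84 in the 6 KIS-ko brains. The wildtype brains of litters 4 and 5, at 7.92 and 7.80, lay below the KIS-ko brain of litter 4, at 8.04, so that the groups overlapped. The wildtype brain of litter 5 also lay below the KIS-ko brains of litters 1, 2 and 3, at 7.801, 7.87 and 7.90. The difference was -0.22 (standard error 0.075, 95% interval -0.38 to -0.050, unadjusted p = 0.016 and adjusted p = 0.685 from limma). In litters 1 to 6 it was -0.43, -0.30, -0.19, 0.12, -0.064 and -0.43, lower in 5 of 6. A two-sided exact permutation test over the signs of the 6 litters gave p = 0.0938, where the smallest p it can give is 0.03125. In whole-brain RNA, fewer cells that express the gene and less of its RNA per cell cannot be told apart.

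Litter 4, in which Chrna5 was higher in the KIS-ko brain, was also the litter in which the KIS-ko array had the higher median signal, and the part of the array medians in the result was measured by centring. Centred on the medians, the difference of Chrna5 was -0.16 (unadjusted p = 0.020, adjusted p = 0.733 from limma), still lower in 5 of 6 litters. Without litter 4 it was -0.28, and without litter 1 or litter 6 it was -0.17, with unadjusted p-values of 0.057 and 0.054 from limma. With the median over probesets in place of the mean it was -0.13 (unadjusted p = 0.20 and adjusted p = 0.789 from limma). The fold change computed as in the methods was 0.888 ± 0.129 (SD, n = 6 pairs).

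All 7 probesets of Chrna5 were lower in KIS-ko brains, as were all probesets in 11.8% of the genes with 7 kept probesets. The differences ran from -0.39 to -0.027. The largest was in the sixth probeset from the 5′ end, with signals of 145 ± 25.5 in wildtype and 107 ± 19.5 in KIS-ko brains (SD, n = 6 each), close to the control median. The brightest, the fourth, had signals of 696 ± 67.2 and 642 ± 47.4 (SD, n = 6 each) and a difference of -0.11 (standard error 0.071). None passed the adjusted limit of limma over all probesets (adjusted p from 0.751).

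Chrnb4, the beta subunit that pairs with alpha3, had the opposite sign. Its gene value ran from 8.35 to 8.56 with a median of 8.42 in wildtype and from 8.43 to 8.70 with a median of 8.50 in KIS-ko brains. In every litter the KIS-ko brain had the higher value, though the groups overlapped and the difference in litter 5 was only 0.0089. The difference was 0.097 (standard error 0.047, 95% interval -0.0069 to 0.20, unadjusted p = 0.064 and adjusted p = 0.685 from limma), and 0.17 in litter 3 was the highest of any litter. A higher value in at least 5 of 6 litters, a wider limit than 6 of 6, was found in 6.15% of all genes. That share is of the values before centring, where 69.8% of all genes were lower. The same exact permutation test gave p = 0.03125, the smallest it can give, and this p is not adjusted for the 8 genes tested.

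The difference of Chrnb4 was uneven along the gene. The probeset at the 3′ end differed by 0.41 (standard error 0.13, unadjusted p = 0.012, adjusted p = 0.742 from limma), with signals of 174 ± 28.1 in wildtype and 241 ± 71.4 in KIS-ko brains (SD, n = 6 each). The 4 probesets in the middle of the gene, the third to the sixth, differed by -0.020 to 0.012. Centred on the array medians the gene value differed by 0.15 (unadjusted p = 0.021, adjusted p = 0.733 from limma), and the centred difference was higher in 5 of 6 litters. With the relative standard deviation limit at 0.2 the difference was 0.053 (unadjusted p = 0.241 and adjusted p = 0.665 from limma).

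Chrna3, the third gene of this locus, had gene values from 10.41 to 10.69 (median 10.62) in wildtype and from 10.39 to 10.66 (median 10.57) in KIS-ko brains. The 2 groups covered nearly the same range. The difference was -0.034 (95% interval -0.17 to 0.10, adjusted p = 0.836 from limma), with the lower value in the KIS-ko brain of 4 litters out of 6. Its first 2 probesets from the 5′ end were higher and the other 6 lower in KIS-ko brains, from -0.18 to 0.17.

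**Figure D2:**
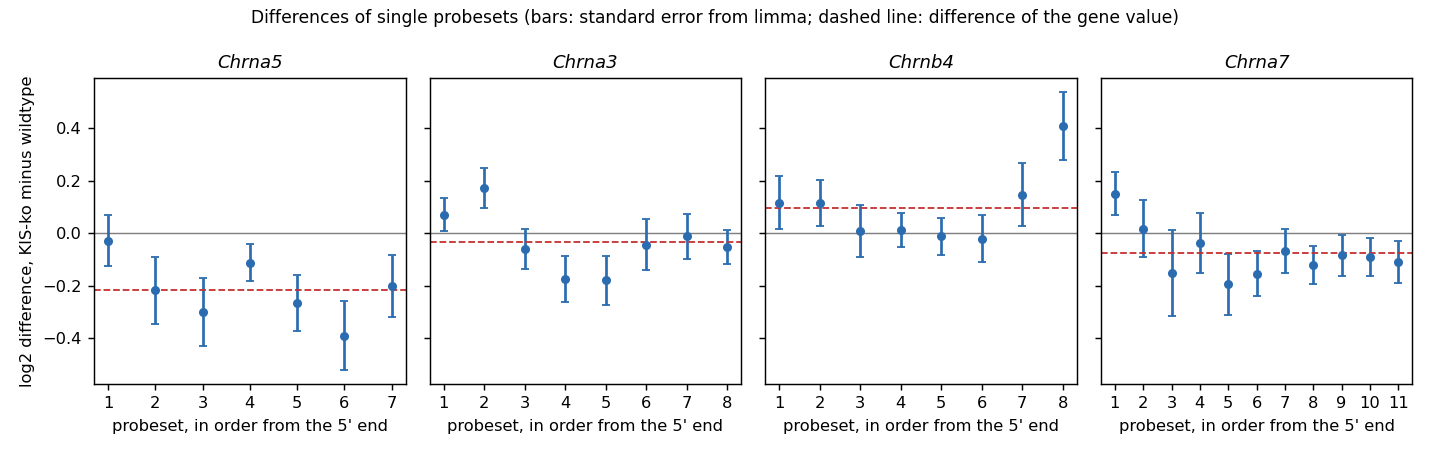
Log2 difference of each kept probeset, KIS-ko minus wildtype, in order from the 5′ end of the gene, with its standard error from limma (bars) and the difference of the gene value (dashed line). All 7 points of Chrna5 lie below 0, while the probeset at the 3′ end of Chrnb4 stands at 0.41 and the middle of that gene near 0.

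Chrna5, Chrna3 and Chrnb4 lie side by side on chromosome 9, in an order known from many vertebrates. The positions given here are those of the deposited table, whose genome build is not given in the sources used here. The probesets of Chrna5 span 54845875 to 54854360 on the plus strand. Those of Chrna3 span 54860616 to 54874262 and those of Chrnb4 54877876 to 54896297, both on the minus strand. Gaps of 6255 and 3613 bases separate the 3 sets of probesets. The protein-coding genes on either side in the RefSeq list of GRCm38.p6 are Psma4, a proteasome subunit, and Ube2q2, a ubiquitin-conjugating enzyme, looked up after the values of the subunit genes were seen. Psma4 differed by -0.039 (standard error 0.054) and Ube2q2 by -0.089 (standard error 0.061), neither called by limma (adjusted p = 0.791 and 0.686).

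Shown here are the sequences before the first listed start of Chrna5 and the start of Chrna3, neighbours read toward each other from opposite strands. They are taken from RefSeq on GRCm38.p6, 5′ to 3′ on the gene's strand, and stop where the annotated gene begins. The first start of Chrna5 in the promoter list lies just inside the annotated gene, so that only the first 197 of the 250 bases before it are shown. Capitals mark a GC box, GGGCGG on either strand. The E-box with the letters CAGCTG was searched on both strands as well. So was the TATA box, in its form with the letters TATAAA. Neither had a match in these sequences. In windows of 250 bases before a start, 32.7% of the 32851 promoters listed hold a GC box, 13.0% the E-box and 12.4% the TATA box, and a match is a description of letters only.
Chrna5, chr9:54980630-54980826, plus strand: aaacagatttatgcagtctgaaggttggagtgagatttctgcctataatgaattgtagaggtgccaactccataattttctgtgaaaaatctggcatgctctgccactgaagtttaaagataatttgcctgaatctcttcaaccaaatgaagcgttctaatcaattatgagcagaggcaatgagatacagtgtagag
Chrna3, chr9:55026563-55026812, minus strand: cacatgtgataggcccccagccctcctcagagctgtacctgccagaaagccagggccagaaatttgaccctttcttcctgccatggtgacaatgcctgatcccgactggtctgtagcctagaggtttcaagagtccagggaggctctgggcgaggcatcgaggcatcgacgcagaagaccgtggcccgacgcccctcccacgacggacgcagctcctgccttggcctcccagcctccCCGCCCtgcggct
G and C made up 40.0% of all 250 bases before this listed start of Chrna5, those not shown included, and 63.2% of those before Chrna3. A second listed start of Chrna5 lies farther inside the gene's span, with 65.2% G and C and 4 GC boxes in its 250 bases. The listed start of Chrnb4 also lies inside the annotated span, with 61.2% G and C, 0 GC boxes and 1 E-box.

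Chrna4 and Chrnb2, the subunits of the main high-affinity receptor, differed by less than the spread between litters. Chrna4 had gene values from 11.45 to 11.66 (median 11.55) in wildtype and from 11.40 to 11.61 (median 11.51) in KIS-ko brains. Its difference was -0.037 (95% interval -0.17 to 0.096, adjusted p = 0.818 from limma) and was lower in 3 of 6 litters. All 9 of its probesets were lower in KIS-ko brains, by at most 0.092, where 66.2% of all probesets were lower. Centred on the array medians the gene value of Chrna4 differed by 0.019. Chrnb2 had gene values from 10.71 to 10.92 (median 10.76) in wildtype and from 10.67 to 10.89 (median 10.77) in KIS-ko brains, with a difference of -0.0085 (95% interval -0.13 to 0.11, adjusted p = 0.956 from limma). For these bright genes the intervals reach from -0.17 to 0.096 and from -0.13 to 0.11 on the log2 scale.

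Chrna7, which forms the fast desensitizing, calcium-permeable receptor blocked by alpha-bungarotoxin, had gene values from 9.74 to 10.10 (median 9.94) in wildtype and from 9.78 to 9.97 (median 9.82) in KIS-ko brains. The KIS-ko brains lay within the wildtype range. The difference was -0.076 (95% interval -0.22 to 0.068, adjusted p = 0.707 from limma). The KIS-ko brain had the lower value in 5 of 6 litters, and 22.5% of all genes were lower in at least that many. The exception was litter 4, with 0.21. Without it the difference was -0.13 (unadjusted p = 0.037 and adjusted p = 0.198 from limma), in a fit where 22.6% of all genes had an unadjusted p under 0.05. Centred on the array medians the difference was -0.020 (unadjusted p = 0.686 and adjusted p = 0.908 from limma), and 3 of the 6 litters were lower. The 9 probesets toward the 3′ end were lower in KIS-ko brains and the 2 nearest the 5′ end higher, up to 0.15 in the first.

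Chrna6 and Chrnb3, the pair found together in dopamine neurons, also lie next to each other, on chromosome 8, with 3836 bases between their probesets and on opposite strands. Chrna6 had gene values from 6.92 to 7.499 in wildtype and from 7.04 to 7.22 in KIS-ko brains, and the difference was 0.0062 (95% interval -0.17 to 0.18, adjusted p = 0.979 from limma). The wildtype brain of litter 2 had the highest of the 12 values. With the relative standard deviation limit at 0.2 in place of 0.4, only the eighth and ninth probesets of Chrna6 were left, at -0.26 and -0.13. The difference of Chrna6 was then -0.20 (unadjusted p = 0.0092 and adjusted p = 0.52 from limma). Chrnb3 had gene values from 6.61 to 6.92 in wildtype and from 6.68 to 6.89 in KIS-ko brains, with a difference of 0.024 (95% interval -0.12 to 0.17, adjusted p = 0.891 from limma). One probeset of Chrna6, the eighth from the 5′ end, had an unadjusted limma p of 0.012 with a difference of -0.26, at signals of 155 and 127 near the control median, and its adjusted p was 0.742.

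**Figure D3:**
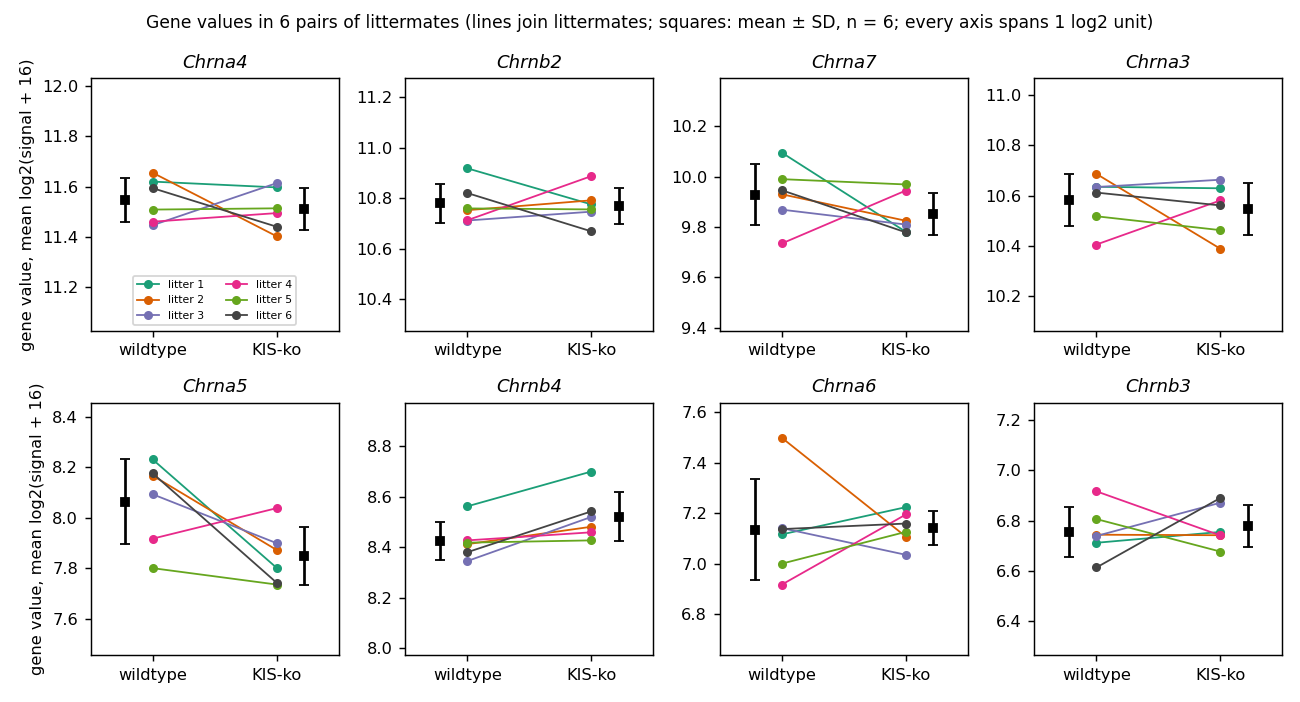
Gene values, the mean of log2(signal + 16) over probesets, of the 8 genes in wildtype and KIS-ko brains, with littermates joined by lines, and the mean ± SD of 6 brains beside them (squares). Every axis spans 1 log2 unit. The lines of Chrna5 go down in all litters but litter 4, and those of Chrnb4 go up in all 6, by 0.0089 to 0.17.

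The probesets were also tested one by one. Of the 70 probesets kept, 47 (67.1%) were lower in KIS-ko brains, against 66.2% of all probesets. An unadjusted limma p under 0.05 was found for 6 of the 70, of which 4 were lower, where 6.63% of all probesets were under that limit. Limma called 0 of the 70 after adjustment and 0.00487% of all probesets. Without litter 4 the count under the unadjusted limit was 13 (18.6%), where 16.1% of all probesets were under it, and without litter 6 it was 2 (2.86%), against 3.85% of all.

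Differences between litters were tested in the same fit. The moderated F test of limma for the 6 litters gave unadjusted p-values from 0.183 (Chrnb4) to 0.927 (Chrnb3), so that 0 of the 8 genes were under 0.05, where 11.3% of all genes were. With the relative standard deviation limit at 0.2, or with the median over probesets, 1 of the 8 was. The 11.3% belongs to the main fit alone, and the share of all genes in those alternative fits is not given here. After adjustment the test called 0 genes of the whole table, and the adjusted p of the 8 genes lay between 0.665 and 0.984. Each litter held only 2 brains, which limits this test, and the size of a litter difference that it would call was not tested.

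The GABA-A and glycine receptor subunits belong to the same superfamily, and were set beside the nicotinic genes by counts and medians, with no test of the lists. Of the 18 GABA-A subunit genes measured, 15 were lower in KIS-ko brains, where 69.8% of all genes were, with a median difference of -0.057. Centring left 9 of the 18 lower, and a repeated quantile normalization 12. The 5 glycine receptor genes had a median of -0.13, with 4 lower, or 3 after centring. The 8 nicotinic genes had a median of -0.021, and all genes -0.036. After centring on the array medians the medians were -0.0013 for GABA-A, -0.077 for glycine and 0.034 for nicotinic genes, against 0.020 for all genes. With the relative standard deviation limit at 0.2 the nicotinic and GABA-A medians were -0.053 and -0.052, which turned their order. That limit left only the eighth and ninth probesets of the dim gene Chrna6 and the fifth of Chrnb3, also dim. The differences of these genes were then -0.20 and -0.087, against 0.0062 and 0.024 in the main fit. The GABA-A median was then over 17 genes in place of 18. The order of the medians without Chrna6 and Chrnb3 was not tested. Without litter 6 the nicotinic and GABA-A medians were -0.020 and -0.021, in the same order as in the main fit but nearly equal. With a litter left out in turn the GABA-A median ran from -0.087 (without litter 4) to -0.021 (without litter 6) and the glycine median from -0.18 (without litter 4) to -0.062 (without litter 2). The study chose its GABA-A and glycine subunits on these same arrays, so that their direction is not independent evidence, and the distance between the lists was not tested.

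Among the GABA-A genes, 2 had an unadjusted limma p under 0.05, both lower, and among the glycine receptor genes 1, also lower, where 4.34% of all genes were under that limit and lower. Gabrg1 differed by -0.20 (standard error 0.079) and Glra3 by -0.29 (standard error 0.084), each with an adjusted p of 0.685 from limma and each lower in 5 of 6 litters. The GABA-A differences ran from that of Gabrg1 up to 0.090 in Gabrd, and the glycine receptor differences from that of Glra3 up to 0.020 in Glra4. Chrna5, at -0.22, lay within the range of these inhibitory subunits, and the other 7 nicotinic genes lay between -0.076 and 0.097.

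Within litters the median of the 8 nicotinic genes was -0.014, -0.18, 0.032, 0.15, -0.013 and -0.10 in litters 1 to 6. For the GABA-A genes it was -0.081, -0.054, 0.012, 0.062, -0.11 and -0.20, and for the glycine receptor genes -0.15, -0.19, 0.065, 0.12, -0.18 and -0.37. The medians of all genes were -0.046, -0.086, 0.0023, 0.071, -0.052 and -0.11. All 4 medians were above 0 in litters 3 and 4 and below 0 in the other 4 litters. The nicotinic median was above that of the GABA-A genes in 5 of 6 litters, and these comparisons share the same arrays.

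**Figure D4:**
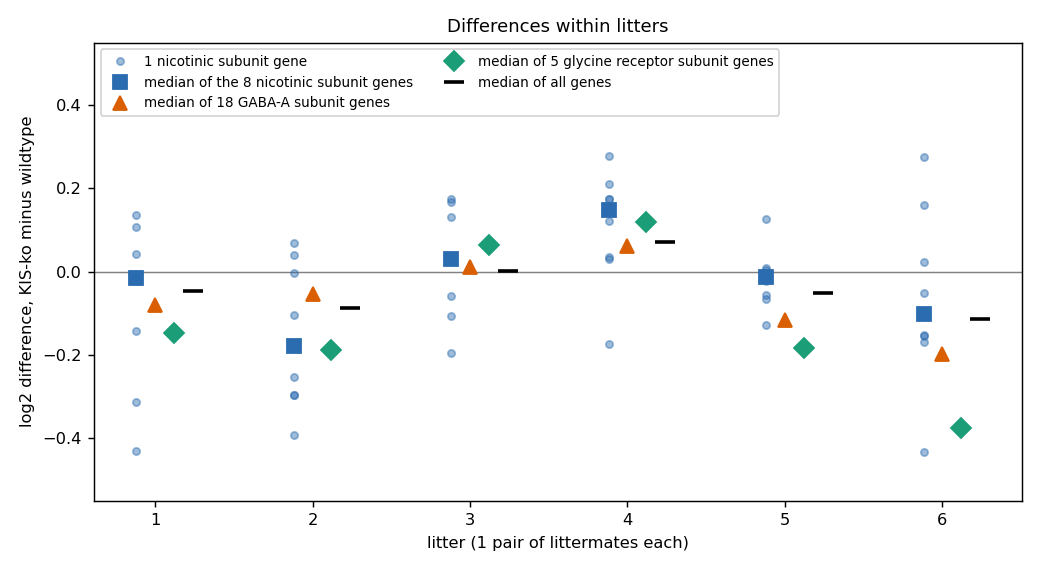
Log2 difference between the littermates of each litter, KIS-ko minus wildtype, for each of the 8 nicotinic genes (small points) and as the median of the nicotinic, GABA-A and glycine receptor genes and of all genes. All 4 medians lie above 0 in litters 3 and 4, and in litter 6 they range from -0.37 for the glycine receptor genes to -0.10 for the nicotinic genes.

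The other measured subunits of the nicotinic family, which leave out Chrna9, were dim in this tissue. Chrna2, Chrna10 and the subunits of the muscle receptor, Chrna1, Chrnb1, Chrnd, Chrne and Chrng, gave 7 measured genes, of which 0 had most of their probesets above the 95th percentile of the controls. Their median difference was 0.047, with 2 lower and 5 higher, or 0 lower after centring, and 2 had an unadjusted limma p under 0.05, both higher, where 1.82% of all genes were under that limit and higher. Chrna10, known from cochlear hair cells, differed by 0.45 (standard error 0.12, adjusted p = 0.685 from limma) on 1 kept probeset with a wildtype signal of 53.9, below the control median. Chrng, the fetal muscle subunit, differed by 0.17 (standard error 0.055, adjusted p = 0.685 from limma) and was higher in 6 of 6 litters. At least 5 of 6 litters were higher in 6.15% of all genes. The 8 skeletal muscle markers measured had a median difference of -0.020, and 0 of them were under the unadjusted limit.

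Genes that assemble, restrain or surround nicotinic receptors were taken from lists. Over all genes 69.8% had lower values in KIS-ko brains, or 37.8% after centring. The share with an unadjusted limma p under 0.05 was 6.16%, with 4.34% lower. Of 10 genes for chaperones and for prototoxins, small proteins related to snake toxins that bind the receptors, 9 had lower values in KIS-ko brains, or 6 after centring, with a median of -0.071, and 0 were under the unadjusted limit. Of 9 genes of cholinergic neurons measured, 7 had lower values, with a median of -0.034, or 4 after centring, with a median of 0.022. Bche, butyrylcholinesterase, was the 1 under the unadjusted limit. It was lower in 6 of 6 litters, by -0.24 on average (standard error 0.071), and limma gave an adjusted p of 0.685. At least 5 of 6 litters were lower in 22.5% of all genes. Of the 5 muscarinic receptor genes, which encode the G protein-coupled receptors for acetylcholine, 4 had lower values, or 3 after centring, with a median of -0.11 and 0 under the unadjusted limit. Limma called 0 genes of these lists after adjustment.

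Markers of the regions that express these subunits were counted likewise, beside 69.8% of all genes with a lower value, or 37.8% after centring. Of 10 markers of the habenula and the interpeduncular nucleus measured, 8 had lower values in KIS-ko brains, or 3 after centring, with a median of -0.035, and the summed level of the list was 6009 to 6663 in wildtype and 5741 to 6467 in KIS-ko brains. Gpr151, a marker of the habenula named after its values were seen, as was Pou4f1, differed by -0.016 (standard error 0.082) and Pou4f1 by -0.044 (standard error 0.050). Tac1, which encodes substance P and neurokinin A, was the 1 marker under the unadjusted limit, with -0.20 (standard error 0.077, adjusted p = 0.685 from limma). Of all genes 4.34% were under that limit and lower. The differences of the 10 markers ran from that of Tac1 up to 0.041. The part of these cells in the result for Chrna5 was not tested. Of 13 dopamine neuron markers 8 had lower values, or 6 after centring, with a median of -0.034 and 0 under the unadjusted limit.

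How alike the subunit genes varied across the 12 brains depended on the scaling. After each array was centred on its median gene, the 28 pairs of genes had a median Pearson r of 0.032, with 16 pairs above and 12 below 0. These correlations are over the same 12 arrays, 2 per litter, and are given as a description. The highest was that of Chrna7 with Chrnb2 (r = 0.656, and 0.770 after the genotype means were removed). Chrnb3 with Chrnb4 had r = 0.579 and Chrna3 with Chrna4 r = 0.501. The lowest was that of Chrna5 with its neighbour Chrnb4, r = -0.832, or -0.681 after the genotype means were removed. Without centring that r was -0.318. Over all 28 pairs without centring, the median r was 0.20 and 20 pairs were above 0. There the highest was Chrna3 with Chrna4 (r = 0.728) and the lowest Chrna7 with Chrnb3 (r = -0.642). Chrna4 with Chrnb2, the partners of the main receptor, had r = 0.031 after centring and 0.368 without.

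**Figure D5:**
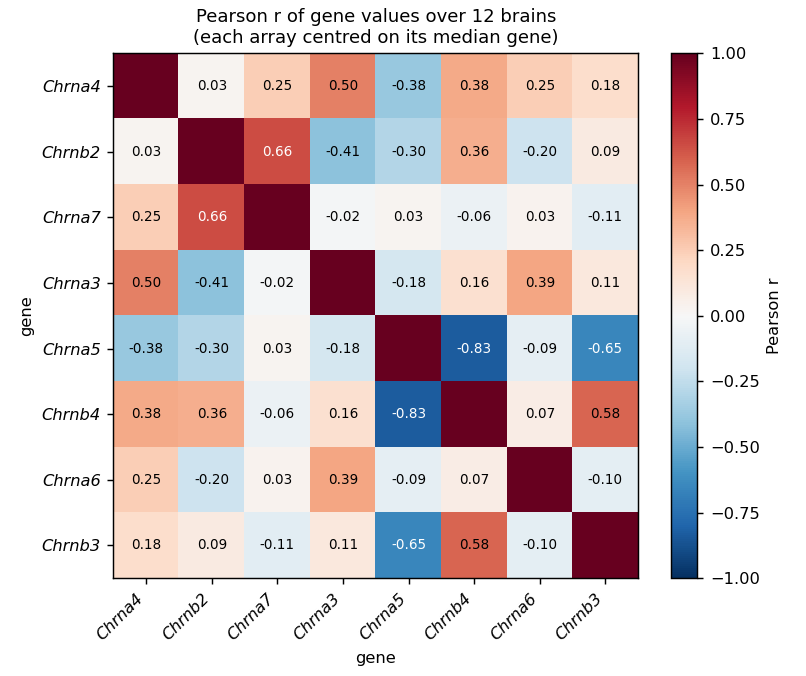
Pearson r between the gene values of each pair of the 8 genes over 12 brains, after each array was centred on its median gene (colour and number in each cell). Chrna7 with Chrnb2 has the highest value, 0.66, and Chrna5 with Chrnb4 the lowest, -0.83.

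The sequences before the starts of Chrna7 and Chrnb2, the pair of highest r after centring, are shown from RefSeq on GRCm38.p6 in the same way, with a GC box in capitals.
Chrna7, chr7:63212527-63212776, minus strand: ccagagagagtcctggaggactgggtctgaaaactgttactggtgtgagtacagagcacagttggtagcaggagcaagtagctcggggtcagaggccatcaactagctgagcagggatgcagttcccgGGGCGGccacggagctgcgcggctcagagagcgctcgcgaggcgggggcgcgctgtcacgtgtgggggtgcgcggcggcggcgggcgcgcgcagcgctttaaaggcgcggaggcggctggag
Chrnb2, chr3:89764633-89764882, minus strand: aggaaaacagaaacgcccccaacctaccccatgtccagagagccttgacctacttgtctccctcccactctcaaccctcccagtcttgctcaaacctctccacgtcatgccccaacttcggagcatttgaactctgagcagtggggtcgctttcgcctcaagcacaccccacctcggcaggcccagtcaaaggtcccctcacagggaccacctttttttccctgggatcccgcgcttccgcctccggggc
G and C made up 67.2% of the first and 59.6% of the second, with 1 and 0 GC boxes. Neither held the E-box or the TATA box. Of the 8 genes, 6 matched the promoter list. The 250 bases before the listed start of Chrna4, which lie inside the annotated gene, held 3 GC boxes and 74.4% G and C. Chrna6 and Chrnb3 were not matched.

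The genes most like each subunit gene over the 12 brains were sought among genes with at least 3 kept probesets, of which at least 50% were above the 95th percentile of the controls. Each array was centred on its median gene for this, and the genotype means were not removed. For Chrna5 the most alike of 6353 candidates was Tac1 (r = 0.893), followed by Uqcrh, a subunit of respiratory complex III (r = 0.867), which differed by -0.22 (standard error 0.093, adjusted p = 0.685 from limma). For Chrnb4 they were Insm1, a transcription factor of newborn neurons and endocrine cells (r = 0.918), and Scube1 (r = 0.914). Chrna4 was nearest to Kcne1l (r = 0.928) and Psmc3 (r = 0.898), Chrna7 to Ino80c (r = 0.928) and Oxa1l (r = 0.921), Chrna3 to Tpp1 (r = 0.867) and Atp2b3 (r = 0.828), and Chrnb2 to Rpl26 (r = 0.860) and Snrnp200 (r = 0.818). For the dim genes Chrna6 and Chrnb3 they were Pank4 (r = 0.800) and Tmem179b (r = 0.751), and Prb1 (r = 0.924) and Tmem65 (r = 0.888). Each value is an extreme among all the candidates over the same 12 arrays.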

How the data were processed

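Total RNA of 12 newborn brains was measured on exon arrays. The intensity deposited by the authors is a PLIER signal on the linear scale, made in the Affymetrix Expression Console after quantile normalization of the exon data. The array columns were matched to brains by the number in each title. Of 221417 main probesets with a symbol, 15948 exceeded the relative standard deviation of 0.4 and were rejected. No pair of arrays was identical (r from 0.978 to 0.992 between arrays). Fits used limma 3.58.1 in R 4.3.3 with moderated variances, checked on simulated data, and tables and plots Python 3.11.15, pandas 2.3.3, numpy 2.4.6 and matplotlib 3.10.9. The litter was a block because the labels pair the brains by litter and the study used pairs of littermates. The fold changes of the methods were taken here as ratios within pairs. The correlation of littermates' deviations from their genotype means ran from -0.114 to 0.473. Alternatives were a fit without the block, a pseudocount of 1 or 64, a relative standard deviation limit of 0.2 or none, probesets above the 95th percentile of intron controls, centred or again quantile-normalized arrays, the median over probesets, probesets matching 1 place, eBayes with trend and robust, the fold change of the methods, and each litter left out.

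The members and gene lists were chosen with earlier results of these data known. Named genes are the 8 members, Uhmk1, up to 3 genes of lowest p per list among those under an unadjusted p of 0.05, the extremes of the GABA-A and glycine lists, and the 2 genes most like each member. Gpr151, Pou4f1 and the genes beside the cluster were added after their values were seen. One gene that the rule names is not reported here.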

Additional observations from a re-analysis of the deposited data

How the results depend on the processing

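Limma called 0 of the 8 genes after adjustment under every alternative that gave a p, which the fold change of the methods did not. It called 0 of their probesets under those fitted by probeset, which leave out the median over probesets. The differences of Chrna5, Chrna7 and Chrnb4 kept their sign under all alternatives that gave a value. With a litter left out in turn they ran from -0.28 to -0.17, from -0.13 to -0.029 and from 0.082 to 0.11. Those of the other 5 genes, all under 0.04 in size, turned. Centred on the array medians, Chrna3, Chrna4 and Chrnb2 became 0.021, 0.019 and 0.047, and after a new quantile normalization Chrna3 and Chrnb2 became 0.0013 and 0.024. Chrna6 became -0.0063 with a pseudocount of 64, -0.031 without the relative standard deviation filter, -0.20 with the limit at 0.2 and -0.046 with the median over probesets. With that limit Chrnb2 and Chrnb3 became 0.0091 and -0.087, with the median 0.021 and -0.0085, and Chrnb2 by the fold change of the methods 0.0049. Leaving out litters gave -0.076 to 0.018 for Chrna3, -0.078 to 0.0062 for Chrna4, -0.048 to 0.086 for Chrna6, -0.045 to 0.020 for Chrnb2 and -0.026 to 0.064 for Chrnb3. The median of the 8 genes, -0.021, became 0.034 after centring, 0.013 after a new quantile normalization, 0.0016 by the fold change of the methods and 0.012 without litter 2, and was -0.053 with the limit at 0.2, -0.050 without litter 4 and -0.047 with the median over probesets. Beyond the probesets left at the limit of 0.2, the cause of these turns was not tested.

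The 1 of 8 genes under an unadjusted p of 0.05 became 2 with the limit at 0.2 (Chrna5 and Chrna6) and after centring or a new quantile normalization (Chrna5 and Chrnb4), and 0 with the median over probesets. It was 0 with bright probesets alone, where Chrna5, Chrna6, Chrnb3 and Chrnb4 have no probeset left. With a litter left out it ran from 0 (without litter 1 or 6) to 3 (without litter 4). Of all genes 6.35% were under that p after centring and 7.05% after a new quantile normalization. The share was 22.6% without litter 4 and 3.18% without litter 6, and 1281 genes were under it with the limit at 0.2. Without the replicate block the count among the 8 genes stayed 1, with an unadjusted p of 0.014 and an adjusted p of 0.747 for Chrna5 from limma. Over all probesets limma called 26 without the block and 10 with it, and the block changed no other call of the 8 genes. That count was 91 with trend and robust, 30 with bright probesets alone, 23 with a pseudocount of 64, 19 with the limit at 0.2, 16 after centring and 9 to 14 under the other alternatives fitted by probeset. Over all genes limma called 2 with a pseudocount of 64, without the relative standard deviation filter and with trend and robust, 5 with the limit at 0.2 and with bright probesets alone, and 1 to 2 with a litter left out. The unadjusted count of 1065, with 750 lower, was 1097 with 293 lower after centring, 1218 with 439 lower after a new quantile normalization, 644 with bright probesets alone, and 550 (without litter 6) to 3913 (without litter 4) with a litter left out. Chrna6 and Chrnb3 have 0 probesets above the 95th percentile of the intron controls, and signal over background limits what can be measured there.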
